A study of Mus musculus with 1152 samples.

Results

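Mural wells were wells whose RNA carried markers of the cells that wrap brain blood vessels, and they numbered 60 of the 857 wells kept from 1152 (7.00%, exact Clopper-Pearson 95% interval 5.38 to 8.92). A well was kept with at least 50000 reads and counted as mural when at least 3 of the 8 genes Acta2, Tagln, Myh11, Cnn1, Des, Myocd, Lmod1 and Smtn (the smooth muscle gate), or at least 3 of the 7 genes Kcnj8, Abcc9, Vtn, Higd1b, Atp13a5, Rgs5 and Ndufa4l2 (the pericyte gate), reached 20 CPM (a gene's reads scaled to the total reads of its well, the usual per-depth unit). The smooth muscle gate held 37 wells and the pericyte gate 49. Of the 60 wells, 11 passed the smooth muscle gate only, 26 passed both and 23 passed the pericyte gate only. These 15 genes chose the wells, so their levels are given as a description.

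Mural cells share the basement membrane of the endothelium. Smooth muscle cells ring arteries, arterioles and, more sparsely, veins, contract through smooth muscle actin and myosin, and set blood flow. Pericytes lie along capillaries, depend on platelet-derived growth factor from the endothelium through the receptor Pdgfrb, and are known in the brain for keeping the blood-brain barrier.

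RNA was sequenced by SMART-seq2, which reads full-length transcripts of a sorted cell in a plate well, from brains of adult C57BL/6 mice of both sexes. Fluorescent cells came from 2 lines: Pdgfra-H2BGFP, in which a nuclear green protein follows the gene Pdgfra, used by fibroblasts and oligodendrocyte precursors, and Tagl-CREERT2;Ai14, which pairs a tamoxifen-dependent recombinase with a red fluorescent reporter that stays on once recombined. Vascular fragments of the digested tissue were pulled out with beads against the endothelial protein CD31, digested again and sorted by fluorescence. The labels tie no well to a line, animal or plate, so all wells count as 1 sample and every comparison below is a description without a replicate check or a test. Intervals of CPM are exact Poisson 95% intervals of summed reads. They cover counting error only, since the libraries carry no molecular identifiers and several reads may stem from 1 molecule.

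The well names form 3 sets of 384 wells. Set 613s gave 34 mural wells of 269 kept (12.6%), set 1025s_182s gave 21 of 239 (8.79%) and set 600s_182s gave 5 of 349 (1.43%, interval 0.467 to 3.31). Wells of the smooth muscle gate only came almost wholly from set 613s, with 10 of 11. Mural wells held 50346 to 1155845 reads (median 322280) and other kept wells a median of 277246. Wells of the smooth muscle gate only were the shallowest, with a median of 91937 reads, against 369152 in wells of both gates and 297121 in pericyte-only wells. No kept wells had identical counts.

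The label was checked on its 6 markers Acta2, Tagln, Myh11, Rgs5, Kcnj8 and Higd1b, all of which are gate genes. At 20 CPM, 32 of the 60 wells carried at least 4 of them and 3 carried all 6. In 55 wells Rgs5 or Acta2, the broadest pair, was present. The other 5 wells had neither, and 2 wells had none of the 6. In these 2 wells the name mural rests on other gate genes alone.

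The wells nearest the edge of the gate rest on few reads. A value of 20 CPM is 1 read at 50000 reads, and the weakest of the 3 markers that admitted a well was backed by under 5 reads in 13 wells, 6 of them smooth muscle only and 6 pericyte only. The median over wells was 4 reads in smooth muscle only, 119.5 in both and 45 in pericyte only. Just inside the smooth muscle gate, the third marker stood at 20.3, 21.0 and 22.5 CPM, and just outside at 19.4, 19.6 and 20.0 CPM. For the pericyte gate the same values were 22.5, 22.8 and 23.6 CPM inside and 18.6, 18.7 and 19.4 CPM outside. Another 63 wells had 2 markers of the smooth muscle gate, against 15 with exactly 3, and the pericyte gate had 63 and 17. With a gate at 200 CPM in place of 20, 30 wells passed, 16 through the smooth muscle genes, 23 through the pericyte genes and 9 through both.

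**Figure D1:**
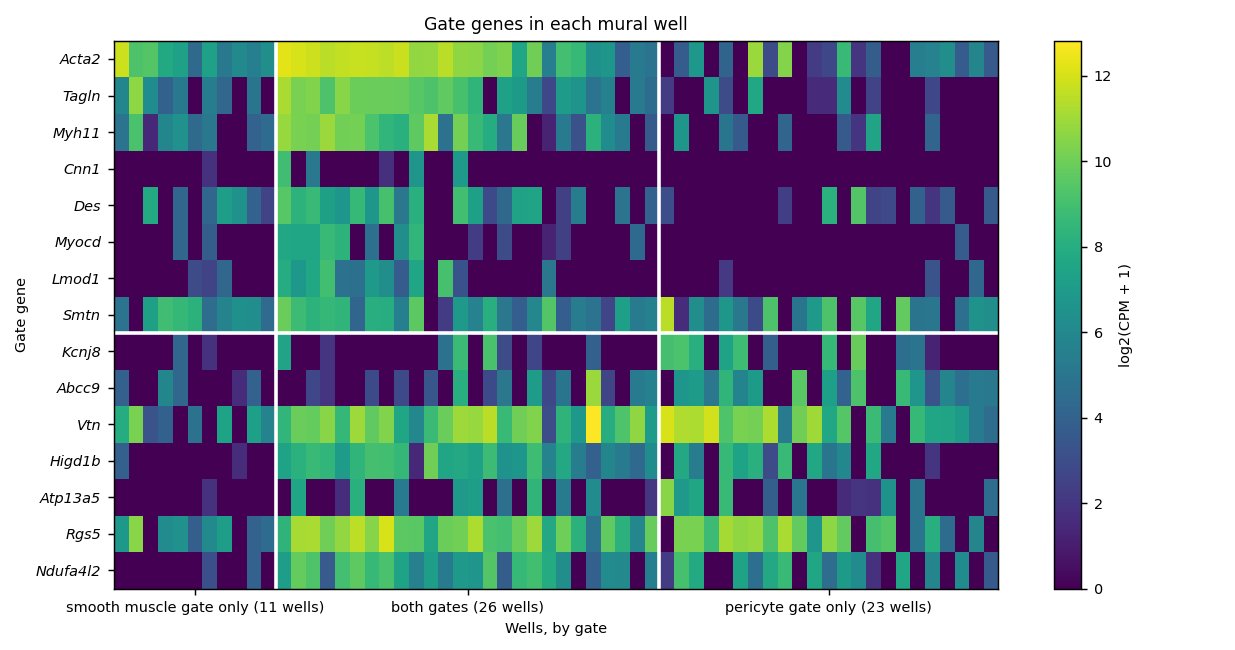
Heatmap of log2(CPM + 1) for the 8 smooth muscle gate genes (above the white line) and 7 pericyte gate genes (below it) in each of the 60 mural wells, with wells in columns grouped by gate. The strongest smooth muscle signal lies in wells of both gates, while the 11 wells of the smooth muscle gate only are faint for most genes.

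Acta2 (chr19:34241090-34255590 on the minus strand of GRCm38), the actin of smooth muscle, was the most abundant of the smooth muscle gate genes. In the 26 wells of both gates it ran from 13.4 to 5094 CPM with a median of 1600. In the 11 wells of smooth muscle only it ran from 20.3 to 3628 CPM (median 160), and in the 23 pericyte-only wells from 0 to 1874 CPM (median 12.4). Pooled over reads, Acta2 stood at 1869 CPM (1843 to 1896) in wells of both gates, 384 (359 to 411) in smooth muscle only and 138 (129 to 147) in pericyte only. The ranges of all 3 classes overlap, and 2 pericyte-only wells, 613s_P13 and 1025s_182s_P8, had Acta2 at 1874 and 1388 CPM.

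Tagln (transgelin, an actin-binding protein) and Myh11 (the smooth muscle myosin heavy chain) followed Acta2, at 609 and 612 CPM in wells of both gates. In smooth muscle only they stood at 99.2 and 39.1 CPM, and in pericyte only at 12.9 and 22.7 CPM. Well 613s_G5 alone gave 68.5% of the Tagln reads and 61.2% of the Myh11 reads of the smooth muscle only class. Among mural wells, the rarer contractile genes Cnn1, Myocd and Lmod1 were near the limit of detection outside wells of both gates. Cnn1 (calponin) reached 20 CPM in 4 wells, all of both gates. Myocd (myocardin, a co-activator of the smooth muscle program) did so in 8 and Lmod1 (leiomodin, an actin nucleator) in 11 mural wells, again all of both gates. Lmod1 also reached 20 CPM in 16 of the 473 kept wells with fewer than 3 endothelial and fewer than 3 fibroblast markers, up to 159 CPM. Des (desmin, an intermediate filament) was present at 20 CPM in 21 mural wells, 16 of them of both gates. Pooled, Des stood at 202 CPM in both gates, 87.3 in smooth muscle only and 56.0 in pericyte only. It also stood at 55.0 CPM in fibroblast wells outside the gates (261 wells with at least 3 fibroblast markers at 20 CPM). In the endothelial-rich wells defined below it stood at 59.5 CPM.

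Smtn (smoothelin) did not follow the other smooth muscle genes in pooled CPM. It stood at 278 CPM in wells of both gates and 282 CPM (270 to 295) in pericyte-only wells, and at 114 CPM in smooth muscle only. Endothelial-rich wells outside both gates, defined as 52 wells with at least 3 of 12 endothelial markers at 200 CPM, also had 238 CPM (231 to 246) of Smtn. Its highest mural well was 600s_182s_E10, a pericyte-only well without Rgs5 or Acta2, at 2860 CPM. Of the pericyte-only Smtn reads, 39.0% lay in 1 well. By well, Smtn medians were 76.1 CPM in smooth muscle only, 55.2 in both and 34.4 in pericyte only. It reached 20 CPM in 10 of 11, 20 of 26 and 17 of 23 wells.

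Among pericyte gate genes, Rgs5 (a regulator of G protein signalling used by most mural cells) was highest in wells of both gates. It ran from 28.6 to 4285 CPM there (median 948) and from 0 to 2312 CPM in pericyte-only wells (median 523), with 5 pericyte-only wells at 0. Higd1b (a hypoxia-inducible domain protein) stood at 210 CPM in wells of both gates and 98.6 in pericyte only. Ndufa4l2 (a relative of a respiratory chain subunit) stood at 258 and 127 CPM in the same order. Vtn (vitronectin, a secreted matrix protein) was the most widespread, at 20 CPM or more in 52 of 60 wells, and stood at 850 and 1089 CPM. Outside the gates, Vtn reached 20 CPM in 125 of 261 fibroblast wells, at 298 CPM pooled. It did so too in 74 of 188 wells with at least 3 endothelial markers at 20 CPM, at 67.3 CPM pooled. In the 11 wells of smooth muscle only, Rgs5 stood at 90.1 CPM, of which 69.4% lay in well 613s_G5, and Higd1b and Ndufa4l2 at 0.919 and 1.84 CPM.

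Kcnj8 and Abcc9, the pore and the sulfonylurea receptor of an ATP-sensitive potassium channel, lie side by side on the minus strand of GRCm38 (chr6:142564837-142571614 and chr6:142587862-142702315) and leaned to pericyte-only wells. Kcnj8 stood at 189 CPM (179 to 199) there against 46.1 (42.1 to 50.5) in wells of both gates and 0.919 in smooth muscle only. Abcc9 stood at 160, 45.4 and 3.68 CPM in the same order. In wells of both gates, 1 well held 64.0% of the Kcnj8 reads. In the 261 fibroblast wells outside the gates, Kcnj8 stood at 30.8 and Abcc9 at 50.6 CPM, so neither gene was confined to mural wells. Both reached 20 CPM together in 9 wells, and 33 of the 60 mural wells had neither at that level. Atp13a5 (a P5-type ATPase) stood at 102 CPM in pericyte-only wells, where 55.9% of its reads came from 1 well and the median was 1.92 CPM. It stood at 56.1 CPM in both gates, but also at 56.7 in endothelial-rich wells outside, where 90.5% of its reads came from 1 well.

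Shares of wells with a read were compared after thinning each well to 50000 reads, which left out none of the kept wells. Rgs5 had at least 1 read in 26 of 26 wells of both gates (100%), in 73.9% of pericyte-only wells and in 81.8% of smooth muscle only. In the 473 kept wells with fewer than 3 endothelial and fewer than 3 fibroblast markers, which serve as a background, the share was 6.55%, with a median depth of 356398 reads against 322280 in mural wells. In endothelial-rich wells outside the gates it was 51.9%. Without thinning, Rgs5 was at 0 in 0 of 26, 5 of 23 and 2 of 11 wells of the 3 mural classes. Kcnj8 was seen in 39.1% of pericyte-only wells, 26.9% of both, 9.09% of smooth muscle only and 0.846% of background wells, and without thinning it was at 0 in 12 of 23, 18 of 26 and 9 of 11 wells. In fibroblast wells outside the gates its thinned share was 8.05%. For Acta2 the thinned shares were 47.8% in pericyte only and 14.6% in the background.

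Wells of both gates differed widely in the balance of the 2 gene sets that chose them. The summed CPM of the 8 smooth muscle genes ran from 126 to 11883 (median 3278) and that of the 7 pericyte genes from 455 to 9260 (median 2347), and the first sum exceeded the second in 13 of 26 wells. The sums were 11883 and 1163 CPM in well 1025s_182s_M1 and 443 and 9260 CPM in well 613s_A14. Pericyte-only wells had a pericyte sum of 91.3 to 6228 (median 2403), and in 3 of 23 the smooth muscle sum was the larger. Wells of the smooth muscle gate only had a smooth muscle sum of 126 to 3743 with a median of 345, and the sum exceeded the pericyte sum in 9 of 11.

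**Figure D2:**
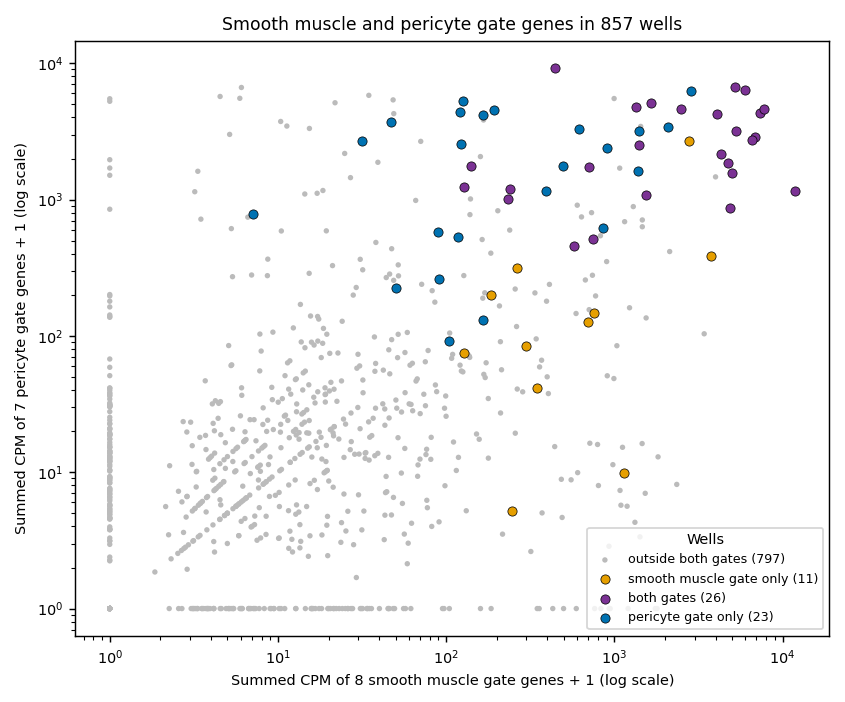
Summed CPM + 1 of the 8 smooth muscle gate genes (x, log scale) against that of the 7 pericyte gate genes (y, log scale) in each of the 857 kept wells, coloured by gate. Most wells of both gates lie in the upper right, and wells of the smooth muscle gate only have a median smooth muscle sum of 345 CPM against 3278 CPM in wells of both gates.

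Nearly all mural wells also held endothelial RNA. At least 3 of 12 endothelial markers (among them Cldn5, a tight junction protein, and Pecam1, the gene of CD31) reached 20 CPM in 57 of 60 mural wells (95.0%, 86.1 to 99.0), against 188 of 797 other wells (23.6%). At 200 CPM this held for 40 mural wells (66.7%): 22 of 26 of both gates, 16 of 23 pericyte only and 2 of 11 smooth muscle only. The summed endothelial CPM ran from 59.5 to 21480 (median 9695) and exceeded the summed CPM of all 15 gate genes in 41 of 60 wells. In such wells fewer mural cells, less mural RNA per cell and more endothelial RNA cannot be told apart. Of the 30 wells that passed a gate at 200 CPM, 25 had 3 endothelial markers at 200 CPM and 3 had neither endothelial nor fibroblast markers at that strength.

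RNA of fibroblasts and of microglia was also common. At least 3 of 10 fibroblast markers, collagens and leptomeningeal genes, reached 20 CPM in 41 of 60 mural wells (68.3%, 55.0 to 79.7) and 261 of 797 others (32.7%). At 200 CPM they did so in 18 mural wells, 10 of which were also endothelial-rich. Oligodendrocyte markers at 20 CPM separate nothing here, as all 60 mural and all 797 other wells had at least 3. Their summed level did differ, with medians of 31484 CPM in smooth muscle only, 1488 in both, 2295 in pericyte only and 16285 in other wells. At least 3 of 8 microglia markers reached 20 CPM in 45 mural wells (75.0%) against 141 others (17.7%), and 200 CPM in 23 mural wells. Astrocyte markers reached 20 CPM in 39 mural wells (65.0%) against 351 others (44.0%), and choroid plexus markers in 7. Perivascular macrophage markers did so in 1, with a summed median of 0 CPM in mural wells and 1 of the 6 markers, Lyve1, at 0 reads in all of them. Erythrocyte markers did so in 7 wells. Of the 797 other wells, 473 had fewer than 3 endothelial and fewer than 3 fibroblast markers at 20 CPM. Among the 188 with at least 3 endothelial markers, 66.5% had at least 3 fibroblast, 47.3% microglia and 54.3% astrocyte markers at 20 CPM. Among the 52 endothelial-rich wells outside these shares were 71.2%, 57.7% and 36.5%. The fibroblast share was thus not particular to mural wells.

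**Figure D3:**
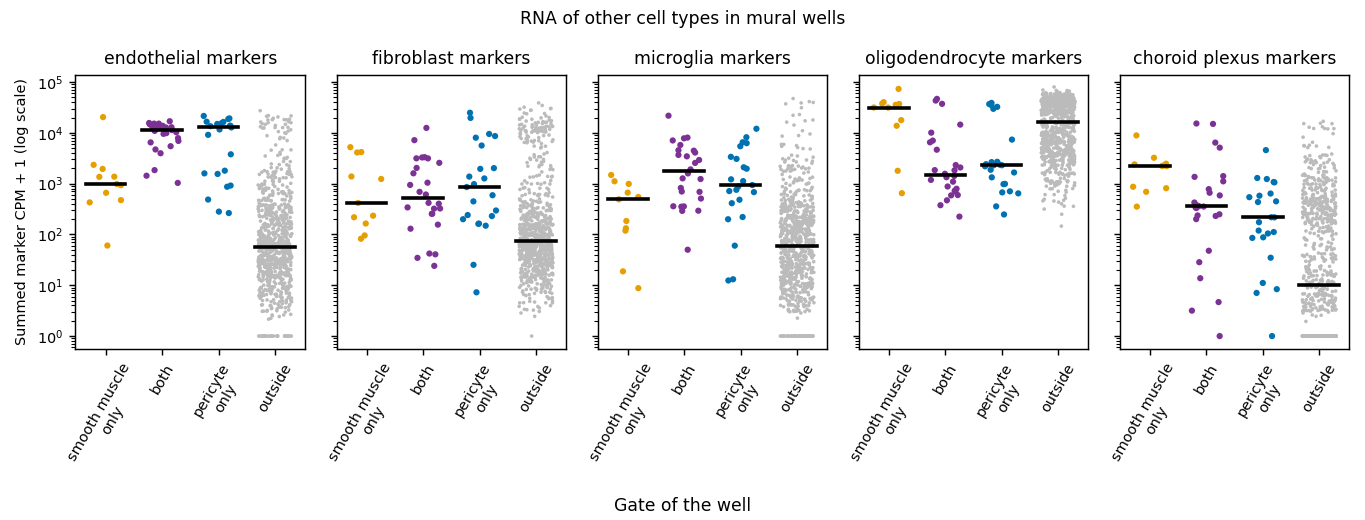
Summed CPM + 1 (log scale) of the marker lists of 5 other cell types in each kept well, by gate; each point is a well and the black bar is the class median. Endothelial sums of wells of both gates and pericyte-only wells have medians of 11118 and 12760 CPM, while wells of the smooth muscle gate only have a median of 982 CPM and oligodendrocyte sums with a median of 31484 CPM.

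Single wells show how these mixtures differ. Well 1025s_182s_E18 had Myh11 at 2382, Acta2 at 1774 and Higd1b at 1068 CPM with Cldn5 at 19.6 and Pecam1 at 49.0 CPM, while its endothelial list summed to 4704 CPM. Well 613s_P13 had Acta2 at 1874, Rgs5 at 1836 and Vtn at 1118 CPM with Cldn5 at 56.2 and Pecam1 at 0 CPM, and its oligodendrocyte sum was 36802 CPM. The well with all 8 smooth muscle genes and the highest Acta2, 1025s_182s_M1, had an endothelial sum of 5451 CPM. Wells 1025s_182s_M19, 1025s_182s_I10, 1025s_182s_J22 and 613s_K8 had Rgs5 at 1203 to 2211 CPM with Kcnj8 at 175 to 576 CPM, and each had at least 10 of 12 endothelial markers at 200 CPM.

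The label goes against the data in 5 pericyte-only wells, those without Rgs5 or Acta2 at 20 CPM. Wells 613s_J4, 613s_J7 and 600s_182s_E10 had Rgs5, Higd1b and Acta2 at 0 to 2.88 CPM, and passed through Kcnj8, Abcc9, Vtn, Atp13a5 or Ndufa4l2. Their fibroblast sums were 24831, 8013 and 19649 CPM, with Col1a1 at 4797 and 2279 CPM in the first pair. Wells 613s_B23 and 613s_J17 had Rgs5 and Higd1b at 0 and Acta2 at 12.4 and 11.4 CPM, passed on 2 reads of the third marker, and had oligodendrocyte sums of 29662 and 38762 CPM. Some smooth muscle only wells were weak as well. Well 1025s_182s_F7 had Tagln, Myh11 and Rgs5 at 0 and Acta2 at 67.3 CPM, with fibroblast and choroid plexus sums of 5218 and 8891 CPM. Well 613s_F5 had Acta2 and Myh11 at 20.3 CPM each, passed on 3 reads of the third marker, and had an endothelial sum of 20377 CPM. All these wells were kept as the rule requires, and fibroblast-rich wells were left out in an alternative given beside the results they touch.

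The smooth muscle gate (37 wells, 12538749 reads) was next compared with pericyte-only wells (23 wells, 7055917 reads) for genes outside the gates. Of the 37 wells, 26 passed both gates and held 10362256 reads, so the contrast is mainly of both gates with pericyte only. In the 11 smooth muscle only wells, Myl9 reached 20 CPM in 10, Mcam in 8, Tpm2 and Flna in 6, and Mylk and Ppp1r12b in 5. Kcnmb1, Kcnj12, Kcna5, P2rx1, Npy1r and Hey2 did so in 0 of them, Pde3a and Heyl in 1, Nrip2 in 2 and Ednra in 3. A gene was called where its pooled CPM, with 1 CPM added to each side, differed at least 2-fold and reached 10 CPM in the higher class, and values below are log2 ratios on that scale. Of 11715 genes with 10 CPM in either class, 2450 (20.9%) were called higher in the smooth muscle gate and 1748 (14.9%) lower, 35.8% in either direction, so a call is common in this comparison. The median over all these genes was 0.07.

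Contractile genes were higher in the smooth muscle gate. Of 20 measured genes of the contractile apparatus outside the gate, 11 were called higher and 0 lower, with a median of 1.16. With fibroblast-rich wells left out the median was 1.78, and within endothelial-rich wells 1.22. Pln (chr10:53337667-53345987, plus strand; phospholamban, which restrains the calcium pump of the sarcoplasmic reticulum) showed the sharpest contrast. It reached 20 CPM in 17 wells, all of both gates, up to 1177 CPM, and had 0 reads in all 23 pericyte-only wells. Pooled, it stood at 239 CPM (231 to 248) in the smooth muscle gate. Against a floor of 3 counts over the pericyte-only class this is at least 563-fold higher. All 17 Pln wells had Acta2 at 20 CPM, and 15 of them were among the 20 wells with Acta2 above 1000 CPM. In endothelial-rich wells outside the gates Pln stood at 6.73 CPM, with 2 of 52 wells above 20 CPM.

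Tpm2 (beta-tropomyosin) stood at 587 CPM (574 to 601) in the smooth muscle gate against 82.3 (75.8 to 89.3), a log2 ratio of 2.82. It reached 20 CPM in 30 of 37 and 8 of 23 wells. Myl9 (the regulatory light chain of smooth muscle myosin) was broader, in 35 of 37 and 17 of 23 wells at 1252 and 381 CPM, a ratio of 1.72. Mylk, the kinase of that light chain, stood at 349 and 82.6 CPM (2.07), and Ppp1r12b, a subunit of the opposing phosphatase, at 112 and 12.0 CPM (3.12). Flna (filamin A) was at 419 and 92.5 CPM (2.17), and Mcam (CD146, an adhesion molecule of vessel walls) at 335 and 69.4 CPM (2.25). Within set 1025s_182s and within set 613s each of these 6 genes was higher as well, with ratios of 1.17 to 4.82.

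Promoters of 2 contractile genes that were high together are shown, because serum response factor, through which myocardin acts, binds the CArG box, a motif of CC, 6 bases of A or T, and GG. The windows run from 250 bases before to 50 after the RefSeq start on GRCm38.p6, 300 bases in all, in transcript direction, with CArG boxes in capitals, including those with at most 1 G or C among the middle bases. The motif reads the same on both strands. The exact box was found in 1.63% of 32851 promoters of this length and the relaxed form, which includes the exact one, in 9.98%. The Acta2 window, chr19:34255324-34255623 on the minus strand, holds 2 relaxed boxes that begin 84 and 34 bases before the start. The Myl9 window, chr2:156775214-156775513 on the plus strand, holds an exact box 161 bases and a relaxed box 99 bases before the start.
Acta2: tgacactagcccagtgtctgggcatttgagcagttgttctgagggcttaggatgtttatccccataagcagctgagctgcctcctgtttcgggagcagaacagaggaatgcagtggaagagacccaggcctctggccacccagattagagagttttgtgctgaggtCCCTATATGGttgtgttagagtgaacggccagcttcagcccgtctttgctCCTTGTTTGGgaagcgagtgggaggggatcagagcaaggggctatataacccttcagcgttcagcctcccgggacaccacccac
Myl9: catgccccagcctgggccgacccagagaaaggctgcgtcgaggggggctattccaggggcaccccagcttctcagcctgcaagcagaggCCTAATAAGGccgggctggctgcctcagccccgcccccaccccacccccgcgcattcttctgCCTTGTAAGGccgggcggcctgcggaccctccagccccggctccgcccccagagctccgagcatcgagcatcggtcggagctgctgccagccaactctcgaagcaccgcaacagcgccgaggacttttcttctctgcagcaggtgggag
Of the 21 contractile genes, 19 were matched in the promoter table, with 23 promoters. Of these genes 3 (Cnn2, Myl6 and Myl9) held an exact box, and the same 3 were the only ones with the relaxed form. Windows of Pln, Tpm2, Mylk, Ppp1r12b, Flna and Mcam held neither form. The background shares are per promoter, and some genes have more than 1. Of the 8 smooth muscle gate genes 5 were matched, 0 with an exact and 1 (Acta2) with a relaxed box. Of the 7 pericyte gate genes 5 were matched, 0 with either form. These are matches of letters in a fixed window.

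Ion channels and vasoactive receptors held genes called in both directions, in numbers that moved with the choice of wells. Of 17 measured channel genes 7 were called higher in the smooth muscle gate and 6 lower (median 0.45; -0.23 within set 613s and 3.90 within set 1025s_182s). At a gate of 200 CPM the counts were 10 and 3 of 15 (median 1.71), and within endothelial-rich wells 10 and 6 of 16 (median 1.73). Kcnmb1, the beta subunit that tunes calcium-activated BK channels, stood at 76.4 CPM (71.6 to 81.4) against 3.26 (2.07 to 4.89), with 13 of 37 and 1 of 23 wells at 20 CPM and a ratio of 4.18. Kcnj12, an inward rectifier, stood at 61.2 and 0.567 CPM in 6 and 1 wells (5.31). Kcna5 (a voltage-gated potassium channel) and P2rx1 (an ATP-gated channel) had 0 reads in pericyte-only wells and 17.5 and 19.4 CPM in the smooth muscle gate, at least 41.3-fold and 45.6-fold higher by the same floor. Of the 6 lower genes, Trpm4 and Trpc4 were each carried mainly by 1 pericyte-only well, with 73.1% and 100% of their reads, and Trpc4 was higher in the smooth muscle gate within set 1025s_182s (4.40). For Kcne4, a potassium channel subunit, 1 well held 58.7% of the pericyte-only reads, and its ratio was -1.36.

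Of 18 vasoactive genes 8 were called higher and 5 lower (median 0.64). The counts were 9 and 1 of 18 at a gate of 200 CPM, 9 and 2 of 16 within endothelial-rich wells, and 10 and 2 of 16 without fibroblast-rich wells. Npy1r, a receptor for the constrictor neuropeptide Y, stood at 44.6 and 1.13 CPM (4.42), in 11 and 1 wells. Pde3a, a phosphodiesterase that degrades cyclic nucleotides, stood at 138 and 7.37 CPM (4.05), and Ednra, the endothelin receptor of vascular smooth muscle, at 95.5 and 22.5 CPM (2.04). All 3 were higher in set 1025s_182s and in set 613s. Ednrb, the second endothelin receptor, was lower in the smooth muscle gate, at 21.6 against 125 CPM (-2.47), and 65.1% of its pericyte-only reads lay in 1 well. At a gate of 10 CPM its ratio was 0.22. Adra1a, an adrenergic receptor, was lower on 3 reads against 410, of which 99.0% lay in 1 well, a ratio of CPM of 0.00412 (0.000846 to 0.0121).

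Of the Notch pathway, which acts in arterial mural cells, 2 of 4 target genes in the list were called higher in the smooth muscle gate and the receptor was not called. Notch3, the mural receptor, stood at 93.4 and 121 CPM (-0.37, not called; 0.84 within set 1025s_182s and -1.56 within set 613s). The known targets Heyl and Hey2 stood at 127 and 23.8 CPM (2.36) and at 36.0 and 2.13 CPM (3.57). The targets Hey1, at 204 and 154 CPM (0.40; 4.60 within set 1025s_182s and -0.62 within set 613s), and Hes1, at 167 and 196 CPM (-0.23), were not called. Hey2 reached 20 CPM in 10 of 37 and 0 of 23 wells. Nrip2, a nuclear receptor cofactor, stood at 256 and 40.0 CPM (2.65), in 19 and 2 wells, with 91.8% of the pericyte-only reads in 1 well. Of 23 surface and signalling genes 5 were called higher and 4 lower, near the share of all genes (median -0.21). Pdgfrb, which pericytes need, was lower at 199 against 428 CPM (-1.10), but its ratio was -0.23 within set 1025s_182s and 0.02 within endothelial-rich wells.

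Slc30a10 (chr1:185454848-185468762, plus strand), a manganese exporter, had the lowest ratio of the listed transporters. It stood at 169 CPM (159 to 179) against 1.83 (1.16 to 2.75), a ratio of -5.90, with 6 of 23 and 2 of 37 wells at 20 CPM and 56.3% of the reads in 1 well. The ratio was -5.34 within set 1025s_182s and -5.54 within set 613s. Of the 26 transporters measured 4 were called higher and 3 lower (median 0.01). Slc38a11, an amino acid transporter, was among the higher ones, at 99.6 and 15.2 CPM (2.64). The transcription factors Tbx3 (-1.61) and Zic1 (-1.72) were lower in the smooth muscle gate, and Zic1 reached 20 CPM in 16 of 23 pericyte-only and 8 of 37 smooth muscle wells. Of 22 transcription factors 3 were called higher and 6 lower (median -0.36; 0.57 within set 1025s_182s).

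**Figure D4:**
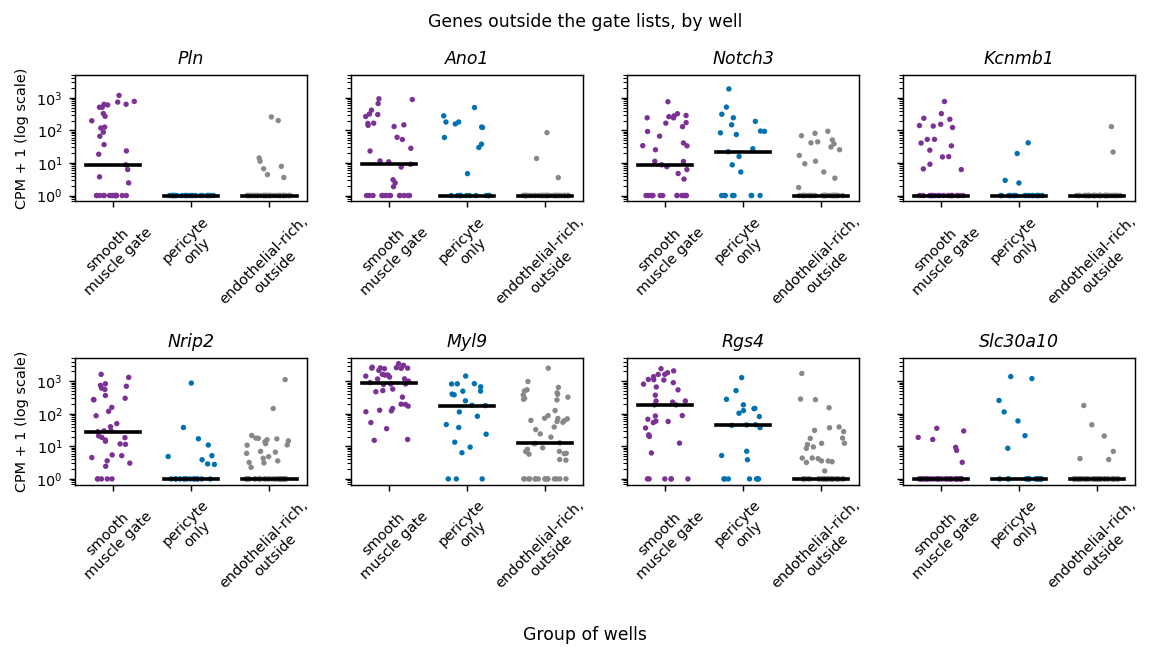
CPM + 1 (log scale) of 8 genes outside the gate lists in 37 smooth muscle gate wells, 23 pericyte-only wells and 52 endothelial-rich wells outside both gates; each point is a well and the black bar is the median. Pln is at 0 in all pericyte-only wells, Ano1 and Notch3 are present in both mural classes, and Slc30a10 is at 20 CPM or more in 6 pericyte-only wells.

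Matrix genes were lower in the smooth muscle gate, together with fibroblast markers. Of 23 interstitial matrix genes 5 were called higher and 11 lower (median -0.88), and of 18 basement membrane genes 1 and 5 (median -0.60). Beside this, 9 of 10 fibroblast markers were called lower (median -1.75), their pooled sums being 1329 and 3945 CPM. Within set 1025s_182s the medians were 0.54, 0.68 and 0.83, so all 3 turned. Without wells that had 3 fibroblast markers at 200 CPM the interstitial median was 0.63, with 6 of 16 genes higher and 4 lower, and the basement membrane median stayed at -0.42. The ratio of Col6a1 (a collagen VI chain) was -1.52 there and -3.95 in the whole comparison. Nid2 (nidogen 2, which links laminin to collagen IV) kept a ratio of -3.43 against -3.18 in the whole comparison, but stood at -0.12 within set 1025s_182s. Of the same interstitial list, Eln (elastin) stood at 71.7 and 28.9 CPM (1.28) and Lox (lysyl oxidase, which crosslinks it) at 25.7 and 4.82 CPM (2.20), both higher in both sets. Other elastic fibre genes were lower, Emilin1 at 31.3 and 208 CPM (-2.69) and Fbn1 (fibrillin 1) at 15.5 and 92.7 CPM (-2.51).

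RNA of other cells also moved with this contrast. All 6 choroid plexus markers were called higher in the smooth muscle gate (median 4.62), and 4 of its wells, against 0 pericyte-only wells, had 3 of them at 200 CPM. Oligodendrocyte markers were higher for 5 of 8 genes, and perivascular macrophage markers for 2 of 3 (median 2.83). With the 4 choroid plexus wells left out, the contractile median was 1.15, and Aqp1, a water channel of the choroid plexus that led the transporter list, had a ratio of -1.36, while the perivascular macrophage median was 3.01. The part of these transcripts in the remaining calls was not tested.

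By size among genes outside the gates, the 12 called highest that were present in at least 50% of smooth muscle gate wells were Atp1b1 (4.74), Wipi2, Filip1l (3.30), Edem2, Rcan2 (3.23), Ppp1r12b, Exoc4, Mapt, Nme7, Dhrs7b, Abca2 and Tpm2. Nme7 (chr1:164304121-164437725, plus strand) overlaps Atp1b1 (chr1:164437109-164458355, minus strand). The strand setting is not given, so their calls may not be independent, which was not tested. Atp1b1, the beta subunit of the sodium pump, stood at 254 and 8.50 CPM in 21 and 4 wells. It also stood at 187 CPM in endothelial-rich wells outside, and its ratio was 4.26 without the choroid plexus wells and 1.88 at a gate of 200 CPM. Rcan2, a calcineurin regulator, stood at 305 and 31.6 CPM. The 12 lowest present in at least 50% of pericyte-only wells were Ednrb, Kpnb1, Slc6a13, Tfpi, Gpx7, Inmt, Cpsf3l, Col1a1, Dph3, Col1a2, Pdgfra and Acap2. Slc6a13 (a GABA transporter), Col1a1 and Col1a2 are also in the fibroblast marker list and Pdgfra in that of oligodendrocyte precursors, and these 4 had ratios of 2.68, 0.06, 1.74 and 2.44 within set 1025s_182s.

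To set the mural wells against vessel wells chosen by the same endothelial markers, 40 endothelial-rich mural wells were compared with 52 endothelial-rich wells outside both gates. Of the 12 endothelial markers 0 were called (median 0.51; 0.23 within set 1025s_182s and 0.80 within set 613s), with Cldn5 at 2305 and 1683 CPM. Their pooled sum was 12597 CPM in these mural wells and 9222 CPM outside. These markers chose both groups, so their levels are a description and do not show that the content was alike. Of 11928 genes 1504 (12.6%) were called higher in mural wells and 2382 (20.0%) lower, 32.6% in either direction, and the median over all genes was -0.06.

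Ano1 (chr7:144588549-144751974, minus strand), a calcium-activated chloride channel of contractile cells, led the genes that were higher in these mural wells. It reached 20 CPM in 24 of 40 and 1 of 52 wells, with a median of 44.1 and a highest value of 926 CPM in mural wells. Pooled levels were 146 CPM (140 to 152) and 1.66 (1.12 to 2.36), a ratio of 5.79. Between the smooth muscle gate and pericyte-only wells Ano1 differed less, at 149 and 81.4 CPM (0.86, not called). Of 16 channel genes 10 were called higher and 3 lower (median 3.28). The higher ones included Kcnmb1 (3.81), Kcnj12 (3.24), Kcnk3, a background potassium channel (3.42), and Kcne4 (4.87). Unlike Ano1, these genes were present in a minority of wells. Among all 60 mural wells, Kcnmb1 reached 20 CPM in 14, Kcnk3 in 9, and Kcnj12 and Kcne4 in 7 each. Among all 797 wells outside the gates the counts were 2, 88, 30 and 23, in the same order.

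Of 17 vasoactive genes 7 were called higher and 1 lower (median 0.93). Rgs4, a relative of Rgs5, stood at 546 CPM (534 to 558) and 24.3 (22.1 to 26.7), in 32 of 40 and 8 of 52 wells (4.43). Mrgprf, an orphan receptor, stood at 50.8 CPM against 0 reads, at least 307-fold higher by the floor of 3 counts, though it reached 20 CPM in 9 of 40 wells only. Gucy1a3 (2.37) and Gucy1b3 (2.58), the subunits of soluble guanylate cyclase that senses nitric oxide, and Ednra (2.72) were higher as well. Both subunits carry older symbols here.

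Of 24 surface and signalling genes 12 were called higher and 2 lower (median 0.96). Notch3 stood at 103 CPM (97.7 to 108) and 10.9 (9.41 to 12.5), in 24 and 9 wells (3.13), and Heyl (3.63), Hey2 (3.80) and Nrip2 (3.49) were higher too. Pdgfrb was not called, at 212 and 145 CPM (0.55), as it was also present in the wells outside. Angpt1, a ligand of the endothelial receptor Tie2, was lower at 13.3 against 222 CPM (-3.96). Connexin genes Gja4 (349 and 36.3 CPM, 3.23) and Gjc1 (99.4 and 9.33 CPM, 3.28) were higher, at 20 CPM in 28 and 24 of the 40 mural wells. Of 20 genes in the contractile list 10 were called higher and 1 lower (median 0.95), led by Pln (4.59), Sncg (3.05), Myl9 (3.04), Mcam (2.42) and Tpm2 (2.40). Sncg, a synuclein gene, and Mcam, an adhesion molecule also counted in the surface and signalling list, are not contractile proteins.

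Aspn (asporin, a small matrix proteoglycan) stood out in the interstitial matrix list, at 122 and 4.42 CPM (4.50), in 17 of 40 and 2 of 52 wells. The list as a whole was lower, with 2 genes higher and 10 lower of 22 (median -0.69), as were 5 of 10 fibroblast markers (median -1.06). The fibroblast markers summed to 1388 CPM in these mural wells and 3006 CPM in the wells outside. Basement membrane genes split, with 4 of 19 higher and 5 lower (median 0.09). Sparcl1 was among the higher (2328 and 1090 CPM, 1.09), and the laminin chain genes Lamb1 (-2.14) and Lama2 (-1.97) among the lower. Of 17 immediate early and stress genes, 2 were higher, Nr4a1 (1.16) and Atf3 (1.45), and 0 lower.

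Other genes named by size in this comparison were Mustn1 (4.52), Filip1l (4.46), Rasd1 (3.46) and Atp2b4, a plasma membrane calcium pump (2.79), on the higher side. The lower side held Moxd1 (55.4 against 710 CPM, -3.66), Coch (50.4 against 638 CPM, -3.64), Ptprd, Marcksl1, Adh1, Lsamp, Col1a1, Lgi3, Gpr37, Tmem63a, Olig1 and Inmt. Oligodendrocyte precursor and oligodendrocyte markers were each lower for 6 of 8 genes, choroid plexus markers lower for 4 of 6 (median -1.53), and erythrocyte markers higher for 5 of 5. Their part in these calls was not tested.

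**Figure D5:**
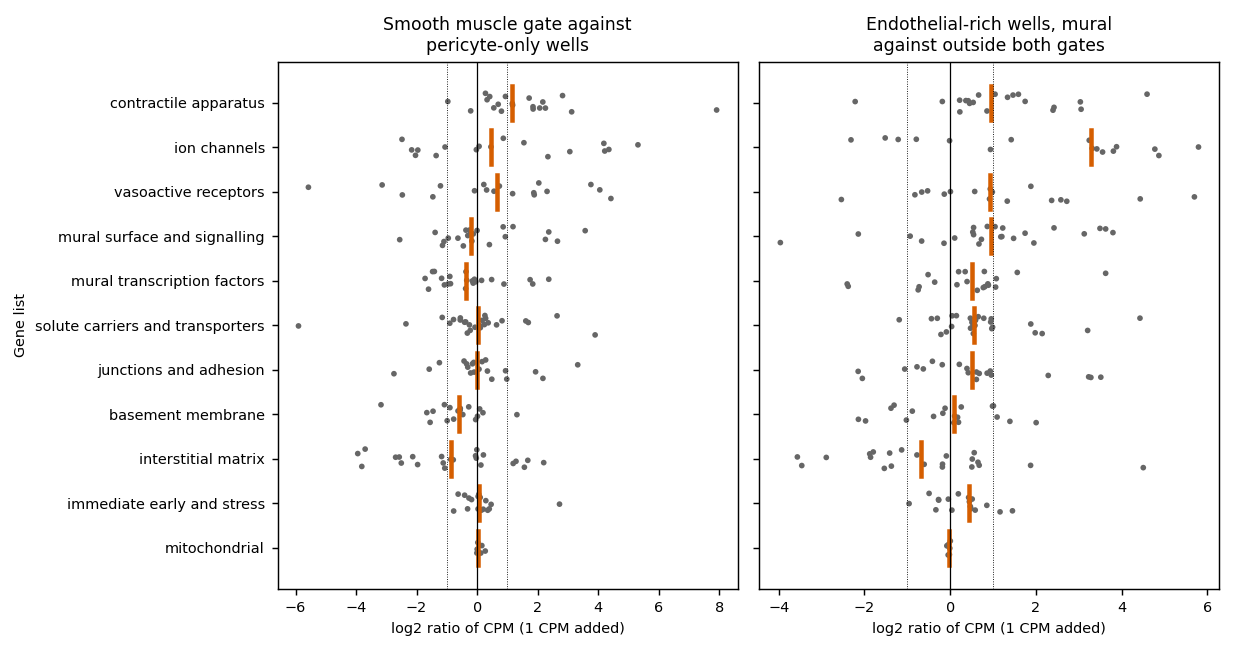
Log2 ratio of pooled CPM (1 CPM added) for each measured gene of 11 function lists in the comparison of 37 smooth muscle gate wells with 23 pericyte-only wells (left) and of 40 endothelial-rich mural wells with 52 endothelial-rich wells outside both gates (right). Orange bars are list medians and dotted lines mark a 2-fold difference; the channel list has medians of 0.45 on the left and 3.28 on the right, and mitochondrial genes lie near 0 in both.

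All 60 mural wells were also set against all wells outside the gates with at least 3 endothelial markers at 20 CPM (188) or 3 fibroblast markers at 20 CPM (261), comparisons that share the mural wells, and whose outside wells overlap. Against endothelial wells, 12.0% of 12217 genes were called higher and 17.9% lower, 29.9% in either direction. Rgs4 (457 and 19.0 CPM, 4.52), Sncg (3.55), Gja4 (3.50), Atp2b4 (3.00), Myl9 (2.99) and Tpm2 (2.78) led. The endothelial markers themselves were higher in mural wells for 11 of 12 genes (median 1.32). The 188 wells had a median depth of 113380 reads, and 52 of them were endothelial-rich. Lower genes were led by Nfasc (-3.25) and the oligodendrocyte lineage genes Bcan, Cspg5, Olig2 and Sox10.

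Against fibroblast wells, 13.2% of 12317 genes were called higher and 20.2% lower, 33.4% in either direction. Sncg (146 and 2.29 CPM, 5.48) and Rgs4 (457 and 16.8 CPM, 4.69) led, followed by Apold1 (4.03) and Gkn3 (3.99), which are endothelial genes of brain vessels, and 11 of 12 endothelial markers were higher. Fibroblast markers were lower for 7 of 10 genes (median -1.44), and 12 of 22 interstitial matrix genes were lower (median -1.03), a median that was 0.80 without fibroblast-rich wells. Kcnip3 (-3.88), Sulf2 (-3.80), Cspg5 (-3.71), Bcan (-3.68) and Olig2 (-3.62) were lowest, and all 8 oligodendrocyte precursor markers were lower in mural wells.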

How the data were processed

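RNA was measured by SMART-seq2 in 1152 wells of 3 sets of 384. The deposited table holds whole-number read counts of 46517 genes per well, not scaled. The tools named per the submitters' processing notes are featureCounts (Subread 1.4.6-p5), TopHat2 2.1.1 and SAMtools 0.1.18, with the builds GRCm38 and mm10. Not given in the sources used here: the gene models, the strand setting and how multi-mapping reads were counted, so antisense, overlapping and near-identical genes are uncertain.

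Here, 857 wells with at least 50000 reads were kept (50002 to 1451280 reads, median 279874), 295 were left out, and no doublet caller was run. Counts were scaled to CPM per well, and summed over wells for pooled CPM. Each list's markers were read at 20 and 200 CPM. Genes with at least 10 CPM in either class were compared with 1 CPM added, and ratios were also taken within sets with at least 5 wells in each class. Named genes are, per comparison, the 12 with the largest log2 ratio in each direction among genes called and at 20 CPM in at least 50% of wells of the higher class. Gate genes, marker genes of the other class and predicted genes were left out of that choice. A gene that the rule names is not reported here. To these were added all gate genes and up to 6 members of each function list with the highest or lowest ratio. Single wells, and Myl9, Notch3 and Ano1 between mural classes and Kcnj12, Kcnk3 and Pdgfrb between endothelial-rich wells, lie outside that rule and were chosen after their values were seen. The members and lists were chosen with earlier results of these data known, and the endothelial-rich comparison and the alternatives on co-captured wells were added after seeing the data.

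Coordinates come from GENCODE vM21 of GRCm38 by symbol (42052 of 46517 symbols matched, 90.4%), where Gucy1a3 and Gucy1b3 stand for Gucy1a1 and Gucy1b1, and promoters from RefSeq on GRCm38.p6. Python 3.11.15, NumPy 2.4.6, pandas 2.3.3, SciPy 1.17.1 and Matplotlib 3.10.9 were used, and the code was tested on simulated data. Alternatives changed the gate, depth, added CPM, level filter and sets of wells.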

Additional observations from a re-analysis of the deposited data

Results flagged for a closer look

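Wells that the depth limit left out were read by the same gates. Of the 295 wells under 50000 reads, 12 passed a mural gate with at least 3 reads behind each of the 3 markers (4.07%, exact 95% interval 2.12 to 7.00). They held 19071 to 43774 reads, and 10 passed the smooth muscle gate and 3 the pericyte gate. By the same rule 51 of the 857 kept wells passed (5.95%), 32 through the smooth muscle gate and 43 through the pericyte gate.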

How the results depend on the processing

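The number of mural wells depends on the gate. Against 60 there were 110 at 10 CPM, 30 at 200 CPM, 39 with at least 4 markers, 39 without set 1025s_182s, 26 without set 613s and 21 without wells carrying oligodendrocyte lineage markers. Against 37, the smooth muscle gate held 72 at 10 CPM, 22 at 50 CPM, 16 at 200 CPM, 22 with at least 4 markers, 23 without set 1025s_182s, 16 without set 613s and 13 without oligodendrocyte lineage wells. Pericyte-only wells numbered 38 at 10 CPM, 14 at 200 CPM, 10 without set 613s and 8 without oligodendrocyte lineage wells, against 23. In these alternatives the level and number of markers asked of the endothelial and fibroblast lists changed together with the gate. The shares at other gates are therefore not on the scale of the main ones. The endothelial share of 95.0% was 83.3% at a gate of 200 CPM and 100% without oligodendrocyte lineage wells. With markers read at 200 CPM, the 60 wells of the main gate had an endothelial share of 66.7% and a fibroblast share of 30%. The fibroblast share of 68.3% was 82.7% at 10 CPM, 47.7% at 50 CPM, 30% at 200 CPM, 53.8% with at least 4 markers, 47.6% without oligodendrocyte lineage wells and 54.8% without fibroblast-rich wells.

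Counts of called genes fell with 10 CPM added or with 50 CPM asked of the higher class. Between smooth muscle gate and pericyte-only wells, 809 were higher at 50 CPM (against 2450), and 1119 and 774 lower with the added CPM and at 50 CPM (1748). Against endothelial wells these counts were 848 and 669 higher (1465) and 1323 and 795 lower (2190). Against fibroblast wells they were 1080 and 830 higher (1621) and 1607 and 958 lower (2494). Between endothelial-rich wells they were 871 and 550 higher (1504) and 1558 and 872 lower (2382). More genes were higher against fibroblast wells without oligodendrocyte lineage wells (2446) and without fibroblast-rich wells (2649), and between endothelial-rich wells without set 1025s_182s (2258) and without oligodendrocyte lineage wells (2424).

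Between the mural classes, ratios turned to 0.22 for Ednrb at a gate of 10 CPM and to 0.43 for Col1a1 without set 613s. Without oligodendrocyte lineage wells they turned to 0.73 for Slc6a13, 1.39 for Col1a2 and 2.14 for Pdgfra, and without fibroblast-rich wells to 0.032 for Col1a2. Bcan turned to 0.62 against endothelial wells and 2.31 against fibroblast wells without oligodendrocyte lineage wells. Against fibroblast wells, Cspg5 (0.50) and Ptprz1 (0.59) turned at 200 CPM, Ptprz1 (1.14) without oligodendrocyte lineage wells, and the interstitial matrix median (0.80) without fibroblast-rich wells. The cause was not tested. Ratios of genes named by size kept their direction under the alternatives run in 378 of 384 values between mural classes, 344 of 345 against endothelial wells, 341 of 345 against fibroblast wells and 360 of 360 between endothelial-rich wells. In the same order, 237, 254, 257 and 226 of the values that kept their direction lay outside the counting interval of the reported ratio. List medians kept their direction in 145 of 187, 166 of 176, 161 of 176 and 164 of 176. Depth limits the smooth muscle only class most, since 6 of its 11 wells held under 100000 reads.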
